A study of Homo sapiens with 8 samples.

Results

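The pluripotency and MYC family genes examined here are 10 protein-coding genes chosen by name: POU5F1, SOX2, NANOG, SALL4, DPPA4, KLF4, LIN28A, LIN28B, MYC and MYCN. All 10 were found among the 19617 coding genes of the GENCODE annotation used. Open chromatin was read from ATAC-seq peak lists over each gene's span plus 50 kb either side, 1247 kb in all. In ATAC-seq the transposase Tn5 inserts sequencing adapters into exposed DNA, so that a peak marks a stretch of accessible chromatin. The series holds 8 libraries from HEK293T, an immortalised line derived from human embryonic kidney. There were 4 libraries of cells with an H2A(E92K) lentivector, called E92K below, and 4 of cells with a lentivector for unmodified H2A, called H2A. The genotype labels name lentivectors, whereas the series' design text speaks of transfection. RNA is named in the extraction protocol, although the molecule is labelled genomic DNA. The labels record no treatment for either group. E92K exchanges an acidic residue of the nucleosome's acidic patch for a basic one. The labels give neither the level of the introduced histone nor what the cells' own H2A genes still made, and they do not say whether replicates were separate cultures. Differences between replicates may therefore be only technical, and so may the spread behind each p-value.

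POU5F1 (also known as OCT4), SOX2 and NANOG are the transcription factors at the core of the network that keeps embryonic stem cells pluripotent. POU5F1, SOX2, KLF4 and MYC are the factors first used together to reprogram fibroblasts. SOX2, KLF4, MYC and MYCN also act in many other tissues: SOX2 in neural progenitors, KLF4 in epithelia, MYC in proliferating cells generally and MYCN in the embryonic nervous system and kidney. LIN28A and LIN28B are RNA-binding proteins that block maturation of the let-7 microRNAs. SALL4 is a zinc finger factor of stem cells and germ cells, and DPPA4 is a chromatin protein found mainly in early embryos and germ cells.

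Each library had its own list of peaks. The E92K lists held 55527 to 61850 peaks and the H2A lists 57439 to 62044. The genome-wide background behind the p-values, used as a measure of depth, was 2.23 to 2.68 fragments per position in E92K and 2.52 to 2.93 in H2A libraries. A shallower library detects fewer weak peaks, and the absence of a peak from a list does not show closed chromatin. All 5 kidney progenitor genes and all 4 neuronal genes used as markers had a promoter peak in all 8 libraries, as did 68.0% of all coding genes. Of 8 T cell, hepatocyte, endothelial and erythroid markers, 6 had none in any library, while PTPRC and APOA1 had one in 1 E92K library each.

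By their promoters 9 of the 10 genes fell into 2 classes, with POU5F1 between them. A promoter here is the stretch within 1000 bp of a transcription start site (TSS) of a coding transcript. SOX2, KLF4, LIN28B, MYC and MYCN had a promoter peak in 4 of 4 E92K and 4 of 4 H2A libraries. NANOG, SALL4, DPPA4 and LIN28A had one in no library. POU5F1 had one in E92K replicate 4 only. Over all coding genes 68.0% had a promoter peak in all 8 libraries and 25.6% in none, against 5 and 4 of the 10 genes. The state of SOX2, KLF4, LIN28B, MYC and MYCN was shared by 13344 other genes for each, that of NANOG, SALL4, DPPA4 and LIN28A by 5028, and the single E92K replicate 4 peak of POU5F1 by 22 others. None of the 10 promoters had a peak in 4 E92K and 0 H2A libraries, or the reverse. Of all coding promoters, 0.0051% did so with the peak in E92K and 0.0255% with the peak in H2A (two-sided Fisher's exact test per promoter, 0 of 19617 passed Benjamini-Hochberg adjustment, and 6 genes had an unadjusted p under 0.05).

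The peaks over the 10 windows merged into 69 regions. Of these 8 lay at promoters of the 10 genes, 8 at promoters of neighbouring coding genes and 53 elsewhere, called distal. A peak was present in all 8 libraries at 6 of the 8 own promoter regions, 6 of the 8 neighbouring promoters and 10 of the 53 distal regions. A further 16 regions were seen in 1 library, 15 of them distal. In all, 31.9% of the 69 regions had a peak in every library, against 38.1% of all merged regions of the 8 lists. For regions seen in 1 library the shares were 23.2% and 26.5%. Strength within a list is given below as a percentile, the share of that list's peaks whose p-value was no smaller. Fold is the deposited enrichment of a peak's strongest summit over its local background. Both describe peaks within a list and were not tested between libraries. The 6 promoter regions with a peak in every library had a median percentile of 81.9, the 10 such distal regions 56.3, and the 43 remaining distal regions 15.4.

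**Figure D1:**
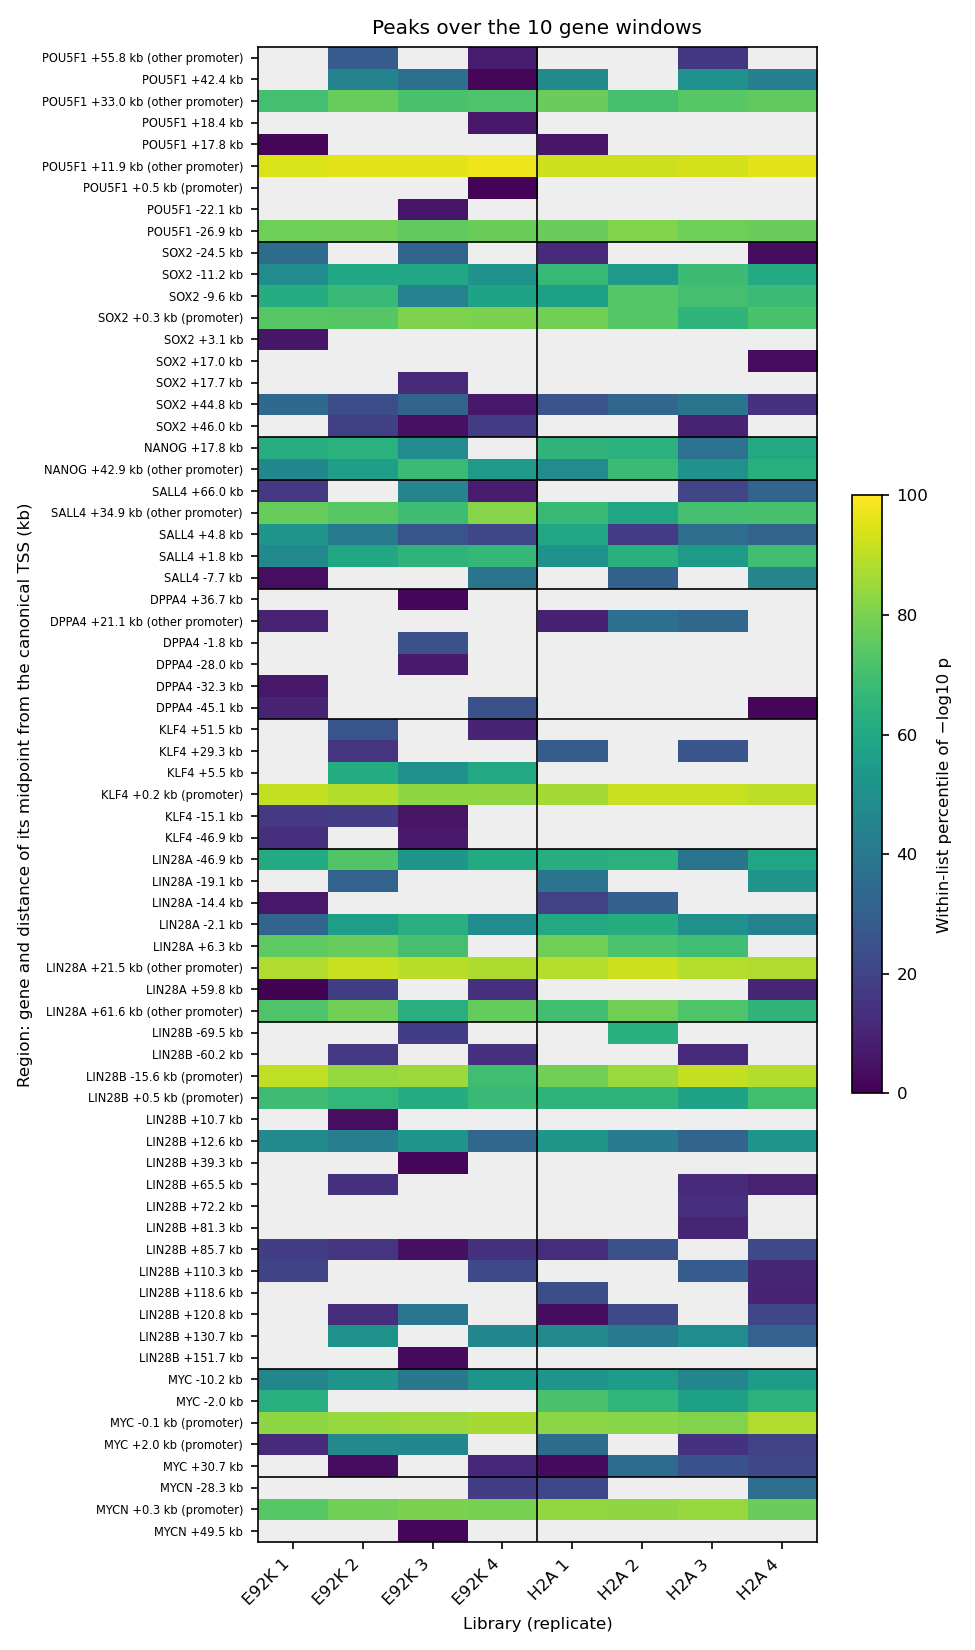
Each row is 1 of the 69 regions, labelled by gene and by the distance in kb of its midpoint from the gene's canonical TSS (positive in the direction of transcription), and each column a library, with the 4 E92K libraries on the left and the 4 H2A libraries on the right. Colour gives the within-list percentile of −log10 p and grey marks a region with no peak: the promoter rows of SOX2, KLF4, LIN28B and MYCN and the main promoter row of MYC are filled across, and most distal rows are patchy.

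The promoters with and without peaks also differed in their number of CpG dinucleotides. The RefSeq promoter table (GRCh38.p14, which has the coordinates of hg38) gives 250 bases before and 50 after the start site for 6 of the 10 genes. It holds no entry used here for POU5F1, SALL4, LIN28A and MYC. The 300 bases held 20 CpG dinucleotides at SOX2, 33 at KLF4, 37 at LIN28B and 14 at MYCN, the 4 with peaks, and 5 each at NANOG and DPPA4, the 2 without. For LIN28B they lie at its upstream start. The region at its canonical start, with a peak in all 8 libraries too, had a GC content of 39.4%. Among 15277 coding promoters in the table, 86.2% of those with 10 or more CpG and 27.0% of those with fewer had a peak in all 8 libraries. The median was 26 CpG for promoters with a peak in all 8 libraries, above SOX2 and MYCN, and 5 for those with none. The limit of 10 CpG was set after seeing these values. SOX2 and KLF4 are printed 5′ to 3′ on the gene's strand as examples of promoters with peaks, and NANOG and DPPA4 as promoters without, with each CpG in capitals. They lie at chr3:181711675-181711974 (plus strand), chr9:107489720-107490019 (minus strand), chr12:7789152-7789451 (plus strand) and chr3:109337497-109337796 (minus strand).
SOX2: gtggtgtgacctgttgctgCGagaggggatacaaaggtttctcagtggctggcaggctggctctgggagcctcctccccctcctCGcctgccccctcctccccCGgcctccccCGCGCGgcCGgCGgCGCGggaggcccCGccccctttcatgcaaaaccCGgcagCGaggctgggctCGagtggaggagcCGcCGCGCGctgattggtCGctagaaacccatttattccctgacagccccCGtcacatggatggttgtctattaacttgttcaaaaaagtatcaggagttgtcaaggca
KLF4: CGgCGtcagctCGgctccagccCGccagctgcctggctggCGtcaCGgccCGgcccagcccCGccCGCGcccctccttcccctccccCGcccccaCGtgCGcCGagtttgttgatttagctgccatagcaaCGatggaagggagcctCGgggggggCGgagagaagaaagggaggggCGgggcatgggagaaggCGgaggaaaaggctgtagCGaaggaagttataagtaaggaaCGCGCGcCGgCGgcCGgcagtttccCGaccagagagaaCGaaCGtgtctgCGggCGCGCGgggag
NANOG: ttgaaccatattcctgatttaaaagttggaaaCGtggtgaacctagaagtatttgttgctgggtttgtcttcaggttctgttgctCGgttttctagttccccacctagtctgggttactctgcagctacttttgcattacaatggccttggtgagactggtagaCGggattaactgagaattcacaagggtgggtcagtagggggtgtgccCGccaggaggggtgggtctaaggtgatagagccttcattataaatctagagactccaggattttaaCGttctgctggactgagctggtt
DPPA4: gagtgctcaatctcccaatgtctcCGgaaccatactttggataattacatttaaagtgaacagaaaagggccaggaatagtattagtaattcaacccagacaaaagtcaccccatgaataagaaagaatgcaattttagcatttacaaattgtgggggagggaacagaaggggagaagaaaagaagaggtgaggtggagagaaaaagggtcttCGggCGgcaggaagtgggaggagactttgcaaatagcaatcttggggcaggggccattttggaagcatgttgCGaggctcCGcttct

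POU5F1 (chromosome 6, 31164337 to 31180731, minus strand) lies within the HLA region. Its promoter peak in E92K replicate 4 (31169997 to 31170450, in an exon) had a fold of 2.86 and stood at percentile 0.918, rank 55016 in a list of 55527. It was thus among the weakest calls of that list. The strongest region in the window was a neighbouring promoter. The region shared by CCHCR1 and TCF19 (31157978 to 31159519) had a median percentile of 95.0 over the 8 libraries. The strongest distal region (31196897 to 31198332) lay upstream, 16166 bp from the nearest POU5F1 TSS and inside a long noncoding RNA gene, ENSG00000272501. The region held 86 CpG over 1436 bp, and promoters of noncoding genes count as distal here. Its fold was 6.72, 6.46, 6.78 and 7.05 in E92K replicates 1 to 4, against 6.22, 7.16, 6.78 and 6.33 in H2A replicates 1 to 4. The groups overlapped, and the percentiles lay between 75.6 and 81.1 in all 8 lists.

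SOX2 (chromosome 3, 181711925 to 181714436, plus strand) is a single-exon gene inside the long noncoding transcript SOX2-OT. Its promoter region was 2106 bp wide (181711213 to 181713318). The promoter fold was 4.74, 4.49, 5.56 and 5.99 in E92K replicates 1 to 4, against 5.08, 4.63, 4.11 and 4.37 in H2A replicates 1 to 4. These ranges overlapped. The within-list percentiles were 74.0, 73.7, 80.6 and 80.4 in E92K and 78.8, 73.5, 65.4 and 71.4 in H2A. Distal regions with a peak in every library lay 10827 bp (181700382 to 181701098) and 9216 bp (181701899 to 181702709) upstream of the TSS, at median percentiles of 59.7 and 64.7. A weaker one lay 44233 bp downstream (181756158 to 181757249, median percentile 28.5). The other 5 distal regions around SOX2 were each called in 4 libraries or fewer, 3 of them in 1.

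NANOG (chromosome 12, 7787794 to 7799146, plus strand) had the least covered window after DPPA4. It held 2 regions. The distal region (7806846 to 7807540), 17231 bp downstream of the nearest NANOG TSS, had a fold of 8.72, 8.51 and 6.31 in E92K replicates 1 to 3 and no peak in E92K replicate 4, against 8.47, 9.02, 5.16 and 7.99 in H2A replicates 1 to 4. It stood at percentiles 48.3 to 63.7 in E92K and 37.5 to 65.6 in H2A, so it was of middle strength where called. The second region was the promoter of SLC2A14, a glucose transporter gene. The window's peaks covered 735 bp per 100 kb, percentile 12.2 of all coding gene windows.

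SALL4 (chromosome 20, 51782331 to 51802521, minus strand) had no promoter peak by the 1000 bp limit, but a region in its intron began 1178 bp from the nearest TSS (51800073 to 51801297). That region had a peak in all 8 libraries. Its fold was 4.38, 5.32, 5.94 and 6.45 in E92K replicates 1 to 4, against 4.40, 6.04, 5.02 and 6.33 in H2A replicates 1 to 4. The groups overlapped almost completely. It held 79 CpG over 1225 bp. With a limit of 2000 bp SALL4 counted as having a promoter peak in all 8 libraries. A second intronic region (51797382 to 51798006) was weaker, at a median percentile of 33.8.

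DPPA4 (chromosome 3, 109326144 to 109337546, minus strand) had the least covered window of the 10, at 423 bp per 100 kb, percentile 8.22 of all windows. Its 6 regions included the promoter of the neighbouring DPPA2, its partner in early embryos, with a peak in 1 E92K and 3 H2A libraries. None had a peak in every library, and 4 were seen in 1 library each. The window held 3, 0, 3 and 1 peaks in E92K replicates 1 to 4 and 1 peak in each H2A library.

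KLF4 (chromosome 9, 107484852 to 107490482, minus strand) had the promoter region with the highest median percentile of the set, 89.2, against 85.2 at the upstream LIN28B start and 83.8 at MYC. The promoter region (107488635 to 107490595) had a fold of 8.58, 7.62, 6.71 and 7.11 in E92K replicates 1 to 4, against 7.12, 8.70, 9.05 and 8.47 in H2A replicates 1 to 4. The groups overlapped. Its percentiles were 90.8, 88.4, 83.1 and 83.6 in E92K and 86.5, 91.8, 91.8 and 90.0 in H2A. It consisted of 2 separate peaks in E92K replicates 1 and 4 and in H2A replicate 1, and of 1 peak in the other libraries.

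The KLF4 window, which did not pass adjustment (limma on covered length, adjusted p = 0.399), had more distal peaks in E92K libraries. Distal peaks numbered 2, 4, 3 and 2 in E92K replicates 1 to 4, against 1, 0, 1 and 0 in H2A replicates 1 to 4. They covered 1389, 1696, 958 and 1237 bp in E92K, against 297, 0, 248 and 0 bp in H2A. On both measures every E92K library was above every H2A library. How often this held for distal peaks alone was not counted over other windows. For all peaks of a window it held at 0.698% of coding gene windows by length and 0.301% by number. The strongest distal region of the KLF4 window lay 5187 bp beyond the nearest KLF4 TSS, just past the end of the gene (107484045 to 107484579). It had a fold of 5.24, 4.57 and 5.72 in E92K replicates 2, 3 and 4, at percentiles 62.0, 50.2 and 60.5. It had no peak in E92K replicate 1 or in any H2A library. Of 5910 regions present in exactly 3 lists, 53 (0.897%) stood at least as high in the weakest of their 3. That share was taken for a region already seen to be strong. Upstream of the gene, a region 14654 bp from the TSS (107504423 to 107505256) had folds of 3.87, 3.70 and 3.28 in E92K replicates 1, 2 and 3, at percentiles 16.5, 18.3 and 5.13, and no peak elsewhere. Another, 46648 bp away (107536417 to 107536971), was called in E92K replicates 1 and 3 alone, and one 51144 bp away on the other side (107437834 to 107438622) in E92K replicates 2 and 4 alone. The fifth distal region (107460301 to 107460635), 29131 bp from the nearest TSS, was called in 1 E92K and 2 H2A libraries. Its fold was 3.46 in E92K replicate 2, at percentile 15.1, against 4.38 and 4.23 in H2A replicates 1 and 3, at percentiles 29.0 and 26.5. Apart from the region past the gene's end, no distal peak of the window was above percentile 29.0.

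The region past the gene's end is shown because it was the stronger of the 2 regions called in 3 E92K and 0 H2A libraries. The 300 bases centred on its strongest summit (hg38, chr9:107484201-107484500, plus strand) are printed with CpG in capitals. Its GC content was 32.9% over the region, against 67.0% for the KLF4 promoter region. None of the 5 motifs listed further on was found in these 300 bases.
KLF4 downstream region: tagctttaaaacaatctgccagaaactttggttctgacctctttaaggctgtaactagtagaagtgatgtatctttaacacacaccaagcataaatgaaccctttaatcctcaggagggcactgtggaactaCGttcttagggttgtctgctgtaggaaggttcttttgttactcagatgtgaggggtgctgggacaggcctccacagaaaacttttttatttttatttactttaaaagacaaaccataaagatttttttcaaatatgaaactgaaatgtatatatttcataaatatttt

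**Figure D2:**
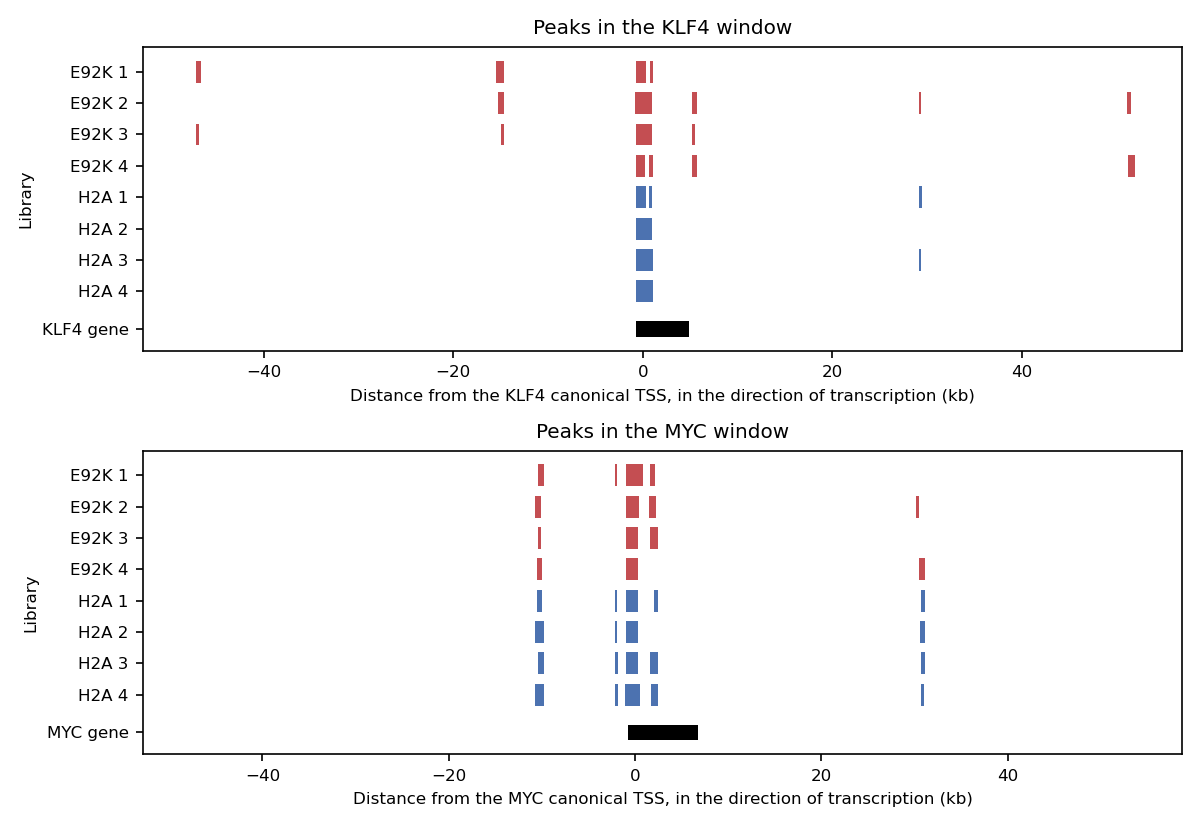
Each bar is a peak, placed by its distance in kb from the canonical TSS in the direction of transcription, with a row for each library (E92K in red above, H2A in blue below) and the gene span as a black bar at the bottom. In the upper panel the KLF4 promoter is filled in all 8 rows while the distal bars number 2 to 4 in E92K rows and 0 or 1 in H2A rows; in the lower panel the peak upstream of the MYC promoter region is present in 1 E92K and 4 H2A rows.

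LIN28A (chromosome 1, 26410817 to 26429728, plus strand) had no promoter peak within 1000 bp, and its nearest region (26408471 to 26409054) ended 1763 bp upstream of the TSS. That region had a fold of 4.86, 7.43, 8.97 and 7.06 in E92K replicates 1 to 4, against 7.78, 8.07, 6.79 and 5.85 in H2A replicates 1 to 4. The groups overlapped. With the 2000 bp limit it made LIN28A count as having a promoter peak in all 8 libraries. A distal region 46578 bp upstream, inside ZNF683 (26363576 to 26364239), also had a peak in every library, at a median percentile of 61.2. So did the promoters of the neighbouring genes DHDDS and HMGN2, at median percentiles of 88.7 and 72.3.

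An intronic region of LIN28A (26416828 to 26417454), 6011 bp downstream of the TSS, was strong wherever it was called. Its fold was 11.5, 12.3 and 9.85 in E92K replicates 1 to 3, against 12.5, 10.6 and 9.09 in H2A replicates 1 to 3. No peak was called in E92K replicate 4 or in H2A replicate 4, the shortest and the longest list. In the 6 lists that held it the percentiles were 69.2 to 78.2. Of 4397 regions of the genome present in exactly 6 lists, 17 (0.387%) stood at least as high in the weakest of their 6 lists. That share was taken because the region had been seen to be strong, so the choice itself makes it low. Peak numbers in the deposited names run on without a gap at this place in both replicate 4 lists, so no numbered peak is missing there. The 300 bases around its summit (hg38, chr1:26417067-26417366, plus strand) are printed because they hold a match to the core of the motif of CTCF, the insulator and loop protein, on the minus strand, in capitals.
LIN28A intron: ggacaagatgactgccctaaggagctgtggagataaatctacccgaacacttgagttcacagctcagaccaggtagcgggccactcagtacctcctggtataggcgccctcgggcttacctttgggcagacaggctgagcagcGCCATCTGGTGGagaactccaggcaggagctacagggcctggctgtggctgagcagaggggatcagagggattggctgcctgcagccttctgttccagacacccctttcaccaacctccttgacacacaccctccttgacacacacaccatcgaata

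LIN28B (chromosome 6, 104936616 to 105083332, plus strand) had promoter peaks at both of its annotated starts. The upstream region (104941072 to 104942030) had a fold of 11.7, 8.91, 10.6 and 6.98 in E92K replicates 1 to 4, against 7.90, 9.67, 11.6 and 10.7 in H2A replicates 1 to 4. The region at the canonical start was the widest of the set at 3813 bp (104955726 to 104959538). Its fold was 4.64, 4.10, 3.89 and 4.62 in E92K, against 4.15, 4.38, 3.81 and 4.64 in H2A. Neither region separated the groups. The gene's long introns held 1 further region with a peak in every library, 11728 bp downstream of the canonical start (104968835 to 104970584, median percentile 45.3). Of the 16 regions in the window 5 were seen in 1 library.

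MYC (chromosome 8, 127735434 to 127742951, plus strand) has 12 annotated coding start sites, and peaks lay over several. The main promoter region (127735172 to 127737074) had a fold of 4.15, 4.19, 4.40 and 4.78 in E92K replicates 1 to 4, against 3.93, 4.02, 3.85 and 4.69 in H2A replicates 1 to 4. The ranges overlapped. The fold was lower in every library than at KLF4 while the percentiles overlapped with those there, at 83.0 to 86.5 in E92K and 81.2 to 88.1 in H2A. The local background recovered from each peak's fold and p-value was 39.98 to 48.3 fragments per position in E92K and 43.1 to 52.3 in H2A libraries. That was 16.8 to 18.3 times the genome-wide background in E92K and 16.5 to 17.9 times in H2A, and above that of 99.3% to 99.5% of the peaks of each list. At the SOX2, KLF4 and MYCN promoters the same ratio was 6.25 to 8.64. The background was lower at the region 8930 bp upstream of the nearest MYC TSS (127725482 to 127726504), at 3.38 to 4.32 in E92K and 3.74 to 5.66 in H2A. How far the promoter's own fragments enter the recovered background was not tested. A second promoter region (127737772 to 127738718) was weaker, with folds of 1.73, 2.20 and 2.28 in E92K replicates 1 to 3 and of 1.98, 1.71 and 1.71 in H2A replicates 1, 3 and 4.

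A narrow region just outside the MYC promoter limit, 1059 bp upstream of the nearest TSS (127734060 to 127734375), was called in 1 E92K and 4 H2A libraries. Its fold was 2.90 in E92K replicate 1, with no peak in E92K replicates 2 to 4, against 3.11, 2.93, 2.58 and 2.77 in H2A replicates 1 to 4. The percentiles were 63.0 in E92K replicate 1 and 56.9 to 71.5 in H2A, so by p-value the peak was of middle to high strength where called. By fold it was low, since the median fold of the peaks of a list was 5.11 to 5.64. For the single region Fisher's exact test gave p = 0.143 (two-sided, n = 4 each), and the adjusted p over all regions was 1. Of 4381 regions present in exactly 5 lists, 46 (1.05%) stood at least as high in the weakest of their 5, a share again made low by the choice of a strong region. The local background here was 39.3 in E92K replicate 1 and 42.3 to 51.3 in H2A. A region 28690 bp downstream (127766435 to 127767354) was weak and was called in 2 E92K and 4 H2A libraries.

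MYCN (chromosome 2, 15940550 to 15947007, plus strand) had 1 strong region, its promoter (15939630 to 15942147), which overlaps the antisense gene MYCNOS. The fold was 4.70, 5.14, 5.51 and 5.65 in E92K replicates 1 to 4, against 5.62, 6.01, 5.99 and 4.71 in H2A replicates 1 to 4. The groups overlapped. At 2518 bp it was the second widest region of the set. The window's other 2 regions were called in 3 libraries and in 1.

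**Figure D3:**
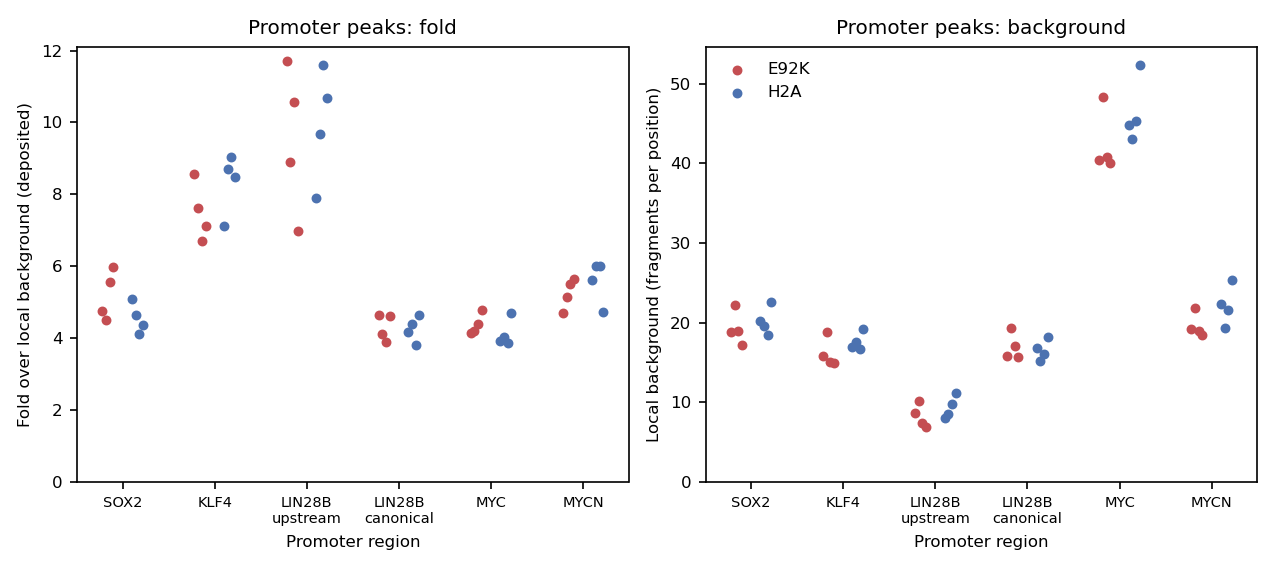
Points are libraries, E92K in red on the left and H2A in blue on the right of each promoter region; the left panel gives the deposited fold and the right panel the local background in fragments per position recovered from fold and p-value. The MYC promoter has folds of 3.85 to 4.78 over a background of 39.98 to 52.3, and the upstream LIN28B start has folds of 6.98 to 11.7 over a background of 6.88 to 11.1.

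The 10 windows together held 41, 42, 43 and 41 peaks in E92K replicates 1 to 4, against 41, 33, 39 and 42 in H2A replicates 1 to 4. They covered 32167, 33000, 32277 and 30619 bp in E92K, against 31297, 28419, 32804 and 35037 bp in H2A. Both measures overlapped between the groups. Per 10000 peaks of a list the windows held 6.79 to 7.49 peaks in E92K and 5.75 to 6.86 in H2A libraries, again overlapping. No test was made of these sums, because the genes were chosen with earlier results known.

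**Figure D4:**
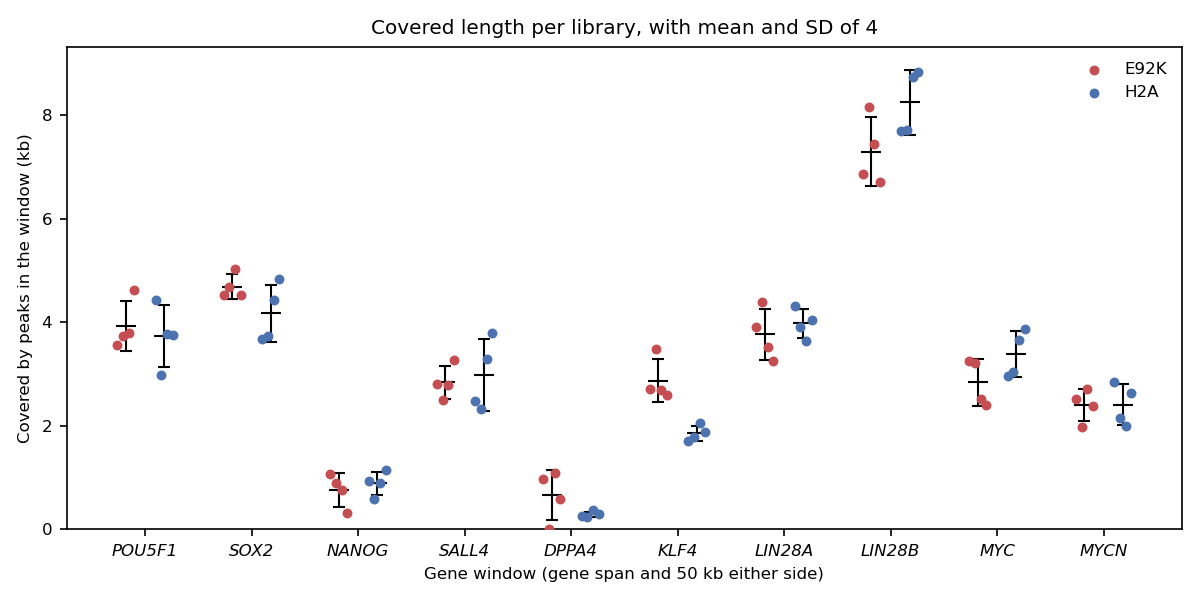
Points give the length covered by peaks in each gene's window in kb, with E92K libraries in red on the left and H2A libraries in blue on the right, and bars give the mean and SD of 4 libraries. KLF4 is the window in which the groups do not overlap: the 4 E92K libraries lie between 2584 and 3489 bp and the 4 H2A libraries between 1711 and 2053 bp.

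Each window's covered length was compared in a limma fit over the 18912 coding gene windows with a peak in any library, on log2(covered bp + 500). None of the 10 windows passed Benjamini-Hochberg adjustment. KLF4 and LIN28B had an unadjusted p under 0.05. Over all windows 0 passed in either direction, and 1.39% were higher and 6.33% lower in E92K at an unadjusted p under 0.05, or 262 and 1197 windows. When each library was centred on its mean over all windows these became 800 and 694, so the balance of higher and lower windows depended on the scaling. An exact permutation test of covered length likewise passed 0 of 18912, since 70 assignments give no p below 0.0286. Of the 10 windows KLF4 alone had that smallest unadjusted p, as did 825 of all 18912 windows.

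KLF4 had the smallest p of the 10 and, at these settings, the largest difference. DPPA4 exceeded it with 100 kb either side (0.37 against 0.34), with equal list lengths (0.52 against 0.51) and without E92K replicate 2 (0.79 against 0.43). The KLF4 window was covered over 2704, 3489, 2691 and 2584 bp in E92K replicates 1 to 4, against 1711, 1777, 2053 and 1867 bp in H2A replicates 1 to 4. The log2 difference was 0.51 with an SE of 0.10 (limma, unadjusted p = 0.000471, adjusted p = 0.399), the 19th smallest p of all windows. Each of the 4 E92K libraries exceeded each H2A library, as was the case at 0.698% of windows for covered length and 0.301% for the number of peaks, which was 4, 5, 4 and 4 in E92K and 3, 1, 2 and 1 in H2A. The converse held for 3.51% of windows by length and 0.969% by number, and for none of the 10. With only peaks of a q-value of 1e-05 or less the KLF4 difference turned to −0.092. Of the distal peaks that threshold kept those past the gene's end, the one 51144 bp away in E92K replicate 2 and those 29131 bp away in H2A replicates 1 and 3. It dropped the other distal peaks. The promoter region consisted of separate peaks in E92K replicates 1 and 4 and in H2A replicate 1. Which of those the threshold kept is not given here, and the cause of the turn was not tested.

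LIN28B went the other way, with 6859, 8163, 7446 and 6706 bp in E92K against 7696, 7706, 8741 and 8831 bp in H2A (limma log2 difference −0.17, SE 0.075, adjusted p = 0.648). The groups overlapped. MYC had 3254, 3210, 2506 and 2389 bp in E92K and 2961, 3044, 3647 and 3869 bp in H2A, with a log2 difference of −0.22 and an SE of 0.12 (limma, adjusted p = 0.692). SOX2 had a difference of 0.16 with an SE of 0.089. The differences at POU5F1, NANOG, SALL4, LIN28A and MYCN were smaller than their SE. DPPA4, at 0.43 with an SE of 0.31, had few bases covered in any library. Its difference was 0.79 without E92K replicate 2, which had no peak in the window (limma, adjusted p = 0.261), 0.27 without E92K replicate 1 and 0.24 without E92K replicate 3.

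**Figure D5:**
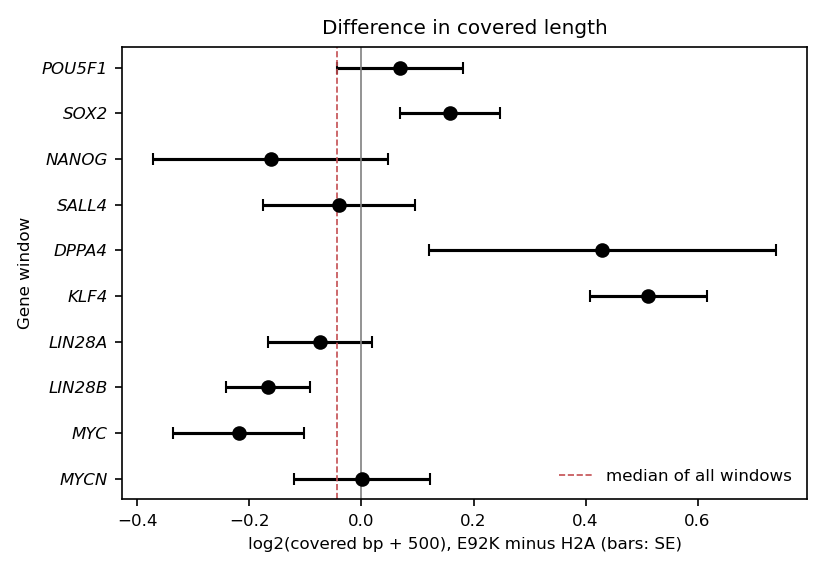
Points are the limma estimates of log2(covered bp + 500) for the 10 gene windows, E92K minus H2A, with bars of 1 SE; the dashed line is the median of all windows, −0.043. KLF4 lies farthest from 0 at 0.51 with the smallest p of the 10, and no window passed adjustment.

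By single regions, 24 of the 69 had a peak in more E92K than H2A libraries, 15 in more H2A than E92K libraries and 30 in equal numbers. Over all 96872 regions of the series the numbers were 23474, 27372 and 46026. No region of the 69 had a peak in 4 of 4 libraries of a group and 0 of 4 of the other. Over all regions 0.139% did so with the peak in E92K and 0.184% with the peak in H2A. By Fisher's exact test 0 of 96872 regions passed Benjamini-Hochberg adjustment, and none of the 69 had an unadjusted p under 0.05. A lead of at least 3 libraries was seen for E92K at 2 regions, both at KLF4, and for H2A at 1, upstream of MYC, against 1.16% and 1.38% of all regions.

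The promoters of genes from the same pathways are given as counts, to be read against the 68.0% of all coding promoters with a peak in all 8 libraries and the 25.6% with none. All 17 MYC network genes, among them the partner MAX, the antagonists MXD1, MXI1 and MNT and the paralog MYCL, had a promoter peak in all 8 libraries. So did all 13 genes of the LIN28 and let-7 pathway, including DROSHA and DICER1, which cut microRNA precursors, TUT4 and TUT7, which add uridines to let-7 precursors, and the let-7 target genes HMGA2, IGF2BP1 and TRIM71. Of 25 other pluripotency genes 9 had one in all 8 libraries, 12 in none and 4 in some. Those with a peak throughout included ESRRB, TFCP2L1 and the DNA methyltransferase gene DNMT3B, and those without any included PRDM14, ZFP42, DPPA3, L1TD1 and NODAL. In between, TDGF1 had a peak in 0 E92K and 2 H2A libraries and UTF1 in 3 E92K and 4 H2A libraries. Of 15 close paralogs 9 had a peak in all 8 libraries, among them SOX3, SOX21, SALL1 and POU3F2, and 4 in none, among them SOX1 and POU5F2. No gene of these lists had a promoter peak in 4 libraries of a group and 0 of the other.

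Consensus motifs were counted within 150 bp of the summits of all peaks, on both strands. They were ATGCAAAT (octamer of POU factors), ACAAAG (SOX), CCNCACCC (KLF), CACGTG (E-box of MYC and other factors) and the CTCF core, and a match is a stretch of letters and not a binding site. In the peaks of the 10 windows the CTCF core was found in 17.1% to 33.3% of peaks per library, against 19.7% to 21.0% of all peaks. The octamer was found in 0% to 3.03%, against 1.42% to 1.49% of all peaks. The SOX, KLF and E-box shares of the windows likewise spanned those of all peaks. With 33 to 43 peaks per library these shares rest on few matches. In the RefSeq promoters the KLF4 sequence holds CACGTG, as do 8.89% of coding promoters, and the SOX2 sequence holds ACAAAG, as do 12.8%.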

How the data were processed

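The data were 8 headerless peak lists, 1 per library, with 10 columns in narrowPeak layout. Alignment was to hg38, per the labels' design text. Which aligner and peak caller were used, and how duplicates and the Tn5 offset were handled, is not given in the sources used here. The deposited fold is a ratio of a summit to its surroundings. The deposited p-values and q-values are on the −log10 scale with a smallest −log10 q of 2, and the deposited score, a whole number, was not used. The remaining columns used are the authors' coordinates and summit offsets. All 8 lists fit hg38 chromosome lengths on 23 chromosomes.

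Repeated intervals were taken as 1 peak with its strongest summit. Peaks of the 8 lists that overlapped or touched were merged into regions, and a gene window was the GENCODE version 44 gene span with 50 kb either side. The local background was solved from the fold and p-value assuming a Poisson p-value and a pileup in whole fragments, which held within 0.001 for 99.8% of peaks or more per list. Total read numbers were not analysed here.

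Covered length was fitted with limma 3.58.1 in R 4.3.3, with a trended prior, a pseudocount of 500 bp and windows covered in at least 1 library, and was tested on simulated data. Presence was tested with Fisher's exact test. Benjamini-Hochberg adjustment ran over all windows, promoters or regions. Alternatives changed the window, the promoter width, the q-value threshold, list length, pseudocount, centring, filter, overlap, replicate block and each library left out. The genes, lists and tests were chosen with earlier results of these data known. Named regions are the promoter regions, any with a peak in 4 of 4 against 0 of 4 libraries, and up to 3 of the strongest distal regions per gene with a peak in all 8 libraries. Others, such as those in the LIN28A intron, past KLF4 and upstream of MYC, were chosen after their values were seen.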

Additional observations from a re-analysis of the deposited data

Results flagged for a closer look

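The highest or lowest library of a group was compared with the other 3 for covered length and number of peaks in each window, over 40 groups of 4 values, and chance sets about 1 in 20 groups apart. In the KLF4 window E92K replicate 2 stood apart with 3489 covered bp, against 2584 to 2704 bp in the other E92K libraries, and with 5 peaks against 4 in each of the others. In the NANOG window E92K replicate 4 had 1 peak against 2 in each of the other E92K libraries, the distal peak being absent there. In the MYC window H2A replicate 2 had 4 peaks against 5 in each of the other H2A libraries. Where 3 counts are equal, any difference of the remaining count sets it apart.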

How the results depend on the processing

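None of the 10 windows passed adjustment, and no promoter of the 10 had a peak in every library of a group with 0 in the other, under any alternative run. Over all windows 1 passed with 20 kb either side, 2 at a q-value of 1e-05 or less and 3 with no filter, against 0. Leaving out 1 library gave 0 to 2 regions with a peak in all remaining libraries of a group and 0 of the other, against 0 with 8 libraries. The share of all regions that did so with a library left out was not counted. With 8 libraries a lead of at least 3 was seen at 1.16% of all regions for E92K and 1.38% for H2A. Without E92K replicate 1 the 2 regions were the one past KLF4 and the one just upstream of MYC. Without E92K replicate 4 they were the region 14654 bp upstream of KLF4 and the one downstream of MYC. The peak of the latter in E92K replicate 2 is then a separate region. The mean number of peaks over the windows was 3 higher in E92K, but −2.25 at a q-value of 1e-05 or less and −0.25 with 20 kb either side. Log2 differences of covered length changed sign at 6 genes, KLF4 and DPPA4 with the largest differences included; the cause was not tested. With 100 kb either side POU5F1 was at −0.049 and NANOG at 0.11, and with 20 kb DPPA4 was at −0.14. At a q-value of 1e-05 or less POU5F1 was at −0.076, DPPA4 at −0.059, KLF4 at −0.092 and MYCN at −0.11. Centring put SALL4 at 0.0050, equal list lengths put MYCN at −0.039, and a pseudocount of 2000 bp put it at −0.00016. Leaving out 1 library gave −0.023 to 0.15 for POU5F1, −0.28 to 0.033 for NANOG, −0.13 to 0.068 for SALL4, 0.24 to 0.79 for DPPA4 and −0.069 to 0.074 for MYCN. KLF4 stayed between 0.43 and 0.55 on leaving out 1 library, and its limma adjusted p ranged from 0.167 to 0.939 over all alternatives. With a replicate block KLF4 had 0.51 and an adjusted p of 0.843 by limma, and no call changed. Replicates with the same number did not deviate together (correlations of −0.051 to −0.00034 over windows) and none correlated best with its own number. At lower depth weak peaks can go uncalled, which limits every count of regions seen in few libraries.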
